A study of Mus musculus with 13 samples.

Results

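The comparison covered 8 liver tumours of mice lacking mir-122, 5 taken at 14 months of age and 3 at 11 months, out of 13 arrays in the series. The tumours were chosen by their labelled source and age, and no measured value entered that choice. Every tumour carried the mir-122 knockout on a B6/129 background, and every control was wild type on the same background. The control groups were livers at 11 months (n = 2) and at 14 months (n = 3), and knockout liver outside a tumour was not analysed here. The labels name no other allele or agent, and they do not say how the deletion was made or in which cells it is present. Messenger RNA from frozen tissue was read on one-colour Affymetrix arrays. All values below are the deposited log2 signals, 1 probe set standing for each of 18193 genes, and a difference of 1 is a 2-fold change.

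MicroRNA-122 is an abundant, hepatocyte-enriched microRNA that acts by pairing with messenger RNAs and lowering their stability and translation, and mice without it develop fatty, inflamed livers and then hepatocellular tumours. Such tumours can differ in how far they keep the hepatocyte programme of plasma proteins, bile acid and drug metabolism, in how fast they divide, and in how many immune and stromal cells they hold. The ages compared here are those of separate tissue samples, not of one tumour followed over time.

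The labelled tissue was checked against hepatocyte markers. Alb, the albumin gene, lay between 14.47 and 14.78 in the 8 tumours and between 14.63 and 14.66 in the 5 controls. These values are near the highest signals of the arrays (14.581 to 14.839), which limits what Alb can show. Hnf4a, a master regulator of hepatocytes, lay between 11.47 and 12.08 in the tumours and between 11.53 and 12.14 in the controls. Of 22 hepatocyte identity genes measured, 2 were lower at an unadjusted p under 0.05 (Asgr1 and Fetub, against 2.51% of all genes). The median difference of the 22 between ages was -0.08. Their mean log2 signal ran from 11.049 to 11.866 in the tumours and from 11.870 to 12.041 in the controls, so every tumour lay below every control. Igf2, a fetal growth factor common in liver tumours, separated all tumours (11.63 to 13.41) from all controls (5.09 to 6.70). In bulk tissue, fewer cells of a type and less RNA per cell cannot be told apart. Replicates 1 and 2 at 14 months have titles without an animal number, which differ only by a final digit. They were the most alike pair of tumours (r = 0.987, 469 genes differing by more than 2-fold), and whether they share a mouse was not tested. Nothing in the labels says that each tumour came from a separate mouse, so n counts tumours and may exceed the number of mice. The p-values therefore measure only the spread between these samples, which may be in part technical.

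The tumours did not fall apart by age: 3 of them, 2 from 11 months and 1 from 14 months, stood apart from the other 5. On the first principal component of the 8 tumours, with 46.3% of the variance, replicates 1 and 2 at 11 months lay at -53.68 and -48.28 and replicate 4 at 14 months at -51.98. The other tumours lay between 21.82 and 42.07, and the highest of these was replicate 3 at 11 months. That tumour correlated with replicate 3 at 14 months at r = 0.984 over all genes, with 614 genes differing by more than 2-fold, and with replicate 1 of its own age at r = 0.938, with 2472 such genes. The median SD of a gene was 0.23 at 11 months and 0.23 at 14 months, against 0.13 and 0.15 in the controls. Results were therefore recomputed without the 3 tumours, which leaves 1 tumour at 11 months against 4 at 14 months, and the medians of the gene lists without them are given beside those of all 8 tumours.

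**Figure D1:**
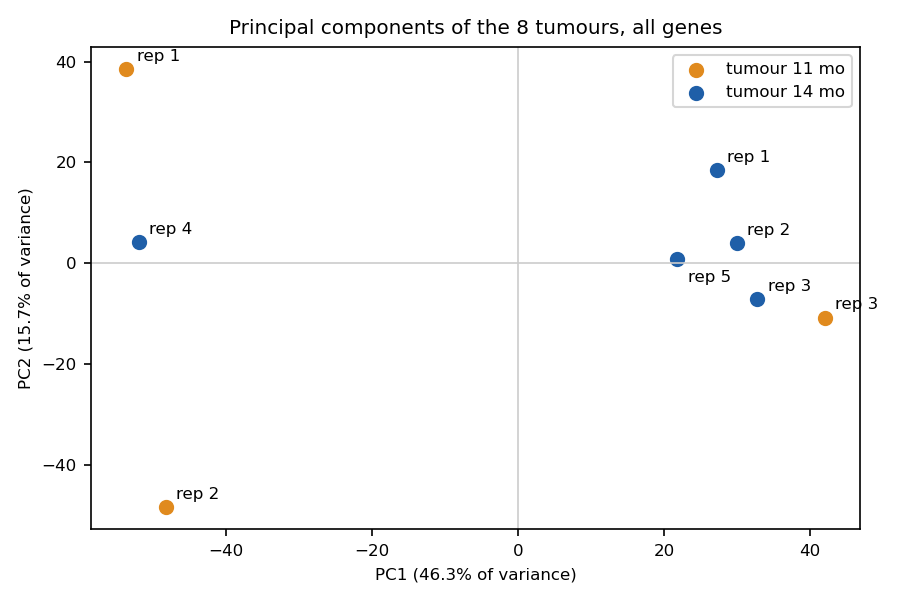
Scores of the 8 tumours on the first and second principal components of the log2 signals of all genes; each point is 1 tumour, coloured by age and labelled by replicate number. Replicates 1 and 2 at 11 months and replicate 4 at 14 months lie left of -48 on the first component and the other 5 tumours right of 21.

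Only 1 gene of 18193 (0.0055%) passed an adjusted p under 0.05 between tumours at 14 and 11 months (limma with Benjamini-Hochberg adjustment). Without adjustment, 682 genes (3.75%) were higher and 457 (2.51%) lower at p under 0.05. A difference of at least 2-fold was found for 215 genes in the higher direction (1.18%) and 150 in the lower (0.824%). For 249 genes (1.37%) every tumour at 14 months lay above every tumour at 11 months, and for 271 (1.49%) every one lay below. Both criteria together were met by 11 higher genes (0.0605%) and 9 lower genes (0.0495%). These shares are the background against which counts in gene groups are read, and the median difference over all genes was 0.00. The age labels can be placed on the tumours in 56 ways. In each direction 1 of the 56 sets a gene's groups fully apart, a chance of 0.0179, above the shares of 1.37% and 1.49%. Groups that did not overlap were therefore no more frequent than shuffled labels would give. Separation of the ages in a single gene is a description only. The unadjusted count ranged from 634 to 2635 over the alternatives, and it was 2635 without replicate 3 at 11 months, 2138 without replicate 4 at 14 months and 634 without replicates 1 and 2 at 14 months.

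The gene that passed was Tmem267, which encodes a predicted membrane protein. Its signal was 3.56, 3.85 and 3.60 in the tumours at 11 months and 5.58, 6.44, 6.39, 6.63 and 6.99 in those at 14 months. The controls lay between 5.84 and 7.25, so the tumours at 11 months were below all 10 other arrays. The tumours at 14 months overlapped the controls. The difference of 2.74 ± 0.31 (SE, n = 5 and 3) had an adjusted p of 0.0377 in limma. This SE, like the others given here, comes from the limma fit of tumours and controls together, so the spread of the controls enters it. For genes that vary less in controls than in tumours, it can understate the spread between tumours. The difference ranged from 2.59 to 3.0 over 25 alternatives, and it passed in 10 of them (adjusted p from 0.00685 to 0.412). The call was lost without the 3 tumours that stand apart (difference 2.75, limma adjusted p = 0.118), with only the 8 tumours in the fit (0.198), and when any 1 of replicates 1, 2 and 3 at 11 months or 2, 3, 4 and 5 at 14 months was left out. It was also lost without control replicates 1 or 2 at 11 months or 1 at 14 months. A single probe set reads this gene. The 250 bases before its start are shown because it is the gene that passed, from RefSeq at GRCm38.p6, chr13:119487836-119488085, plus strand. None of the 6 motifs searched below lies in this window.
Tmem267: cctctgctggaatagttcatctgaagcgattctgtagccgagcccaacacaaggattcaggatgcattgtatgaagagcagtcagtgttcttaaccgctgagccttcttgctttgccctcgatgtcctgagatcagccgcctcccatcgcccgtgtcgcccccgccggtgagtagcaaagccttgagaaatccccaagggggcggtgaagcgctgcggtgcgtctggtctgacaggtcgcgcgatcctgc

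A gene close to Tmem267 differed in the same direction. In the RefSeq gene order of GRCm38.p6, 4833420G17Rik is the second measured gene before Tmem267. Its signal was 8.08, 7.35 and 7.74 at 11 months and 8.54, 8.82, 9.43, 9.52 and 8.82 at 14 months, and the groups did not overlap. The controls lay between 8.75 and 9.46, above every tumour at 11 months. The difference was 1.30 ± 0.26 (SE) and did not pass (limma adjusted p = 0.481). Of its 4 other probe sets, 3 differed the same way and 1, with a mean signal of 4.67, the opposite way (-0.41). Among the 10 measured genes on each side of Tmem267, chosen after the values were seen, 4833420G17Rik was the only one with groups that did not overlap. The gene between them, 3110070M22Rik, differed by 0.21 at signals of 2.89 to 3.59 in the tumours. On the side beyond 4833420G17Rik, Paip1, a translation factor, differed by -0.57, and Nnt, the mitochondrial transhydrogenase, by -0.47. Ccl28, the next gene on the other side, differed by 0.06.

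**Figure D2:**
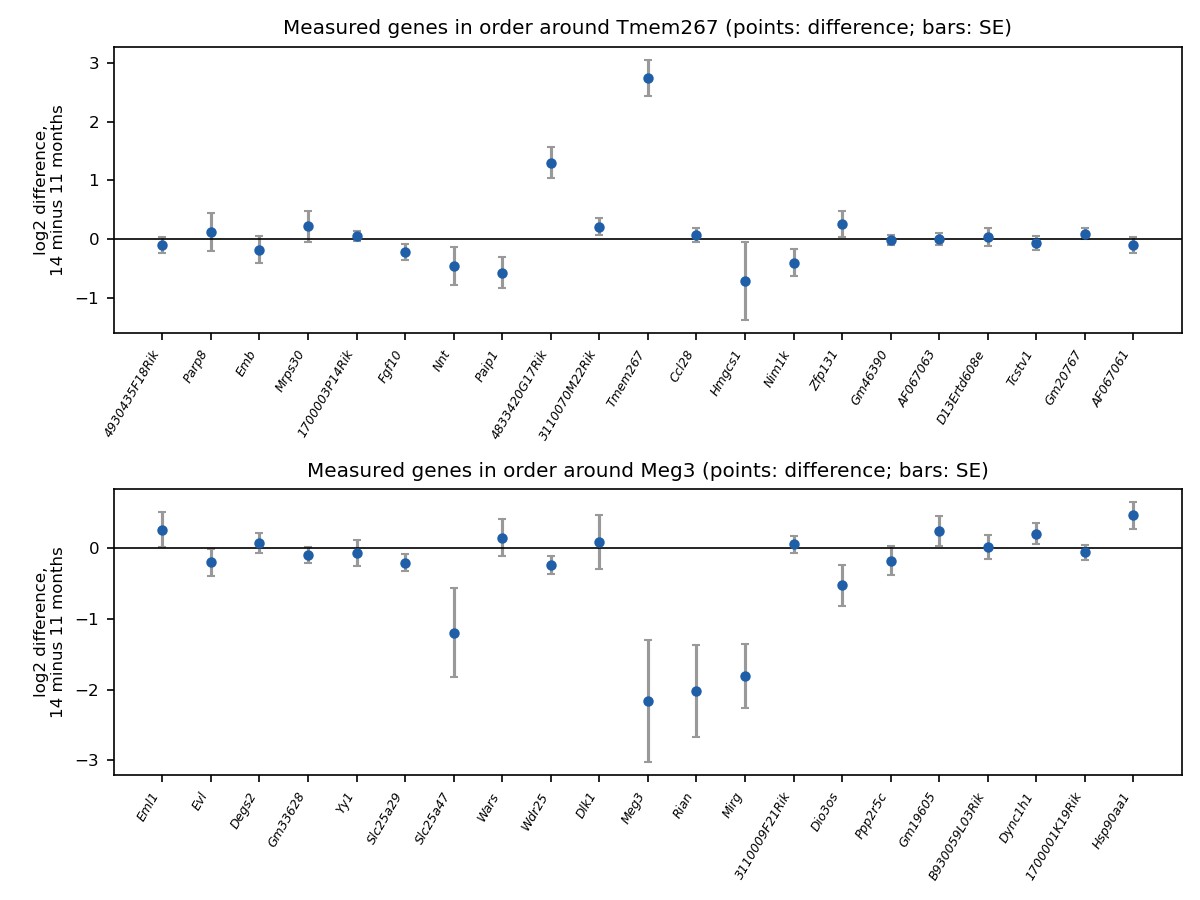
Points show the difference in log2 signal between tumours at 14 and 11 months (n = 5 and 3). Bars show the SE from the fit of tumours and controls together. The 10 measured genes on each side of Tmem267 and of Meg3 are in RefSeq gene order. Tmem267 (2.74) and 4833420G17Rik (1.30) stand above their neighbours, and Meg3, Rian and Mirg (-2.16, -2.02 and -1.81) below theirs.

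The 12 genes with the smallest unadjusted p among those at least 2-fold higher at 14 months were Tmem267, Slc17a1, 4833420G17Rik, Lamb2, Rsl1, Hspb1, Nol3, Naip2, Mtmr7, Gprc5b, Etfbkmt and Pygb. Apart from Tmem267 none passed the threshold, so their values are descriptions. Slc17a1, a phosphate and urate transporter, read 6.68, 6.97 and 7.61 at 11 months and 9.31, 8.94, 8.32, 7.87 and 8.67 at 14 months. All 5 tumours at 14 months were above all controls (7.07 to 7.65), and the difference was 1.53 ± 0.30 (SE). Lamb2, a laminin chain of basement membranes, read 5.27, 5.1 and 5.81 against 6.86, 6.28, 6.09, 6.21 and 6.85, also above every control (4.84 to 5.4).

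Rsl1, a zinc finger repressor of male-biased liver genes, read 5.0, 4.66 and 4.23 at 11 months and 5.92, 5.58, 5.99, 5.70 and 5.52 at 14 months, with a difference of 1.12 ± 0.25 (SE). Naip2, a sensor of the inflammasome, read 6.09, 5.61 and 6.29 against 7.31, 7.23, 7.72, 7.30 and 6.71, and Nol3, an inhibitor of apoptosis, read 5.83, 5.45 and 6.20 against 8.05, 6.42, 7.26, 7.38 and 6.75. In these 3 genes the ages did not overlap. Hspb1, a small heat shock protein, had the second largest difference of the 12 (2.28 ± 0.54 SE), from 7.59, 7.86 and 9.61 to 10.18, 10.90, 11.32, 9.22 and 11.53. There the ages overlapped, because replicate 4 at 14 months lay below replicate 3 at 11 months. Etfbkmt, a methyltransferase of a mitochondrial electron carrier, read from 8.0 to 8.94 at 11 months and from 9.37 to 10.08 at 14 months. Pygb, a glycogen phosphorylase (1.04), Mtmr7, a phosphoinositide phosphatase (1.34), and Gprc5b, an orphan receptor (1.56), overlapped between ages.

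**Figure D3:**
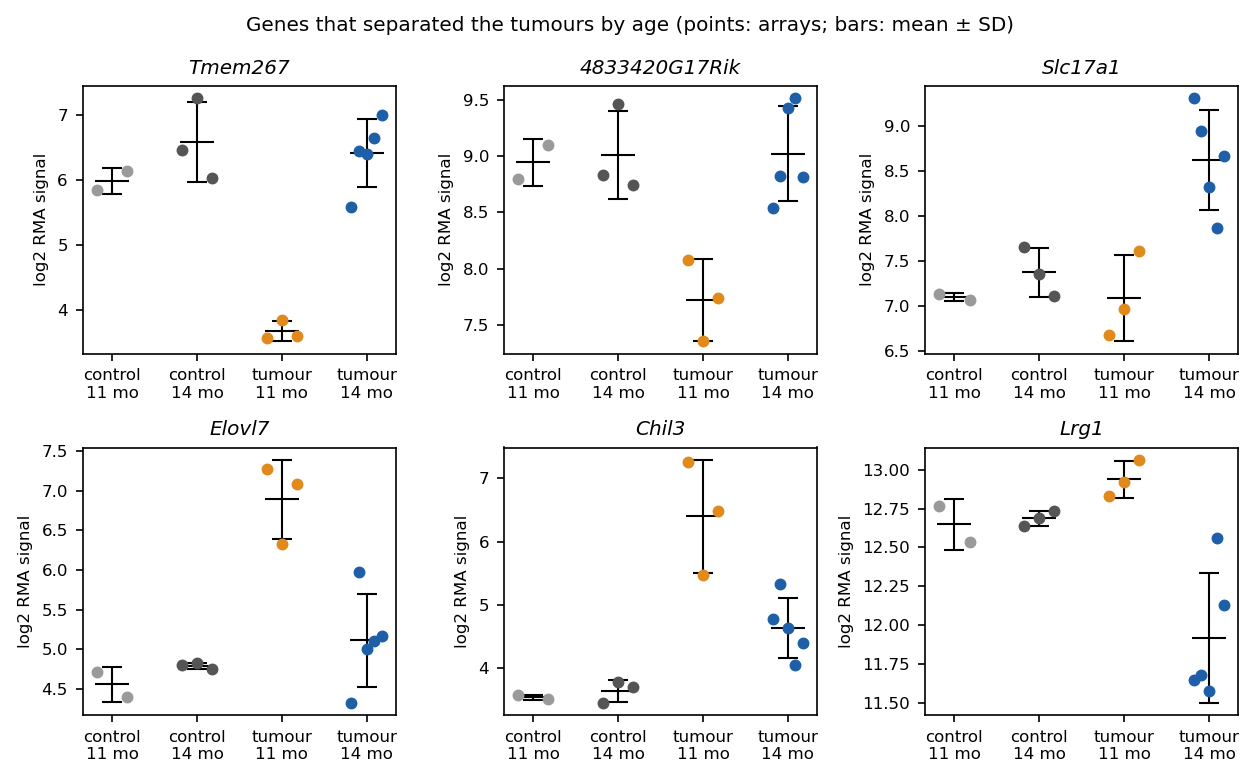
Log2 signal of 6 genes in every array, by group (2 and 3 control livers, 3 and 5 tumours); points are arrays and bars show mean ± SD, on axes that do not start at 0. In each panel the tumours at 11 and 14 months do not overlap, and for Tmem267 and 4833420G17Rik it is the tumours at 11 months that lie below the controls.

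The 12 counterparts at least 2-fold lower at 14 months were Elovl7, Lrg1, Chil3, Adamdec1, BC018473, Mirg, Serpina3n, Tifa, Pls1, Bnc2, Ogfrl1 and Rian, and none passed the threshold. Elovl7, an elongase of long-chain fatty acids, read 7.27, 6.33 and 7.08 at 11 months and 4.32, 5.97, 5.01, 5.1 and 5.17 at 14 months. The controls lay between 4.40 and 4.82, below all tumours at 11 months. The difference was -1.78 ± 0.31 (SE, limma adjusted p = 0.417), and all 5 other probe sets of the gene differed the same way (-1.69 to -1.21). It passed in 1 alternative, with replicates 1 and 2 at 14 months averaged (limma adjusted p = 0.0256).

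Chil3, a chitinase-like protein made by macrophages, read 7.25, 5.47 and 6.48 at 11 months against 4.78, 5.33, 4.63, 4.05 and 4.39 at 14 months, with the controls lower still (3.45 to 3.78). Lrg1, a secreted glycoprotein of the acute phase, read 12.83, 12.92 and 13.06 against 11.65, 11.68, 11.58, 12.56 and 12.13, and here the controls (12.53 to 12.77) lay below all tumours at 11 months. Adamdec1, a metalloproteinase of the macrophage lineage, read 7.73, 8.57 and 6.57 against 5.94, 5.98, 5.13, 4.91 and 5.05. Tifa, an adaptor in NF-kappaB signalling, read 8.68, 8.93 and 9.71 against 8.62, 7.71, 7.97, 8.25 and 7.87. In all 4 the ages did not overlap. BC018473, a transcript with no assigned function, had the largest difference of the 12 (-3.23 ± 0.80 SE), but replicate 4 at 14 months, at 6.52, lay inside the range at 11 months (6.08 to 8.45).

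Without the 3 tumours that stand apart, 13 of these 24 genes were still at least 2-fold different. The genes were chosen for a large difference in the same arrays, so their direction there is no separate evidence. Gprc5b differed by 0.28 in place of 1.56 and Ogfrl1 by -0.23 in place of -1.27. Of the 24 genes, 12 have more than 1 probe set, and 22 of their 23 other probe sets differed in the same direction. The size of those differences varied, from 0.13 in Etfbkmt to 2.75 in Gprc5b among higher genes. Among lower genes it went from -0.07 in Bnc2 to -1.94 in Rian. Promoters in RefSeq were found for 10 of the higher and 9 of the lower genes, and 250 bases before each start were searched on both strands. The E-box CACGTG (6.86% of 27025 promoters), the interferon response motif (3.46%), the AP-1 motif TGANTCA (7.82%) and the HNF4 motif CAAAGTCCA (0.451%) were in none of the 19. The D-box TTATGTAA (0.977%) was in Slc17a1. The NF-Y motif CCAAT (37.5%) was in Rsl1 and in Chil3, Lrg1, Mirg and Tifa.

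Mirg and Rian are neighbours of Meg3, and the 3 are non-coding RNAs of the imprinted Dlk1-Dio3 region, normally expressed from the maternal copy. Meg3 read 10.93, 12.41 and 11.23 at 11 months and 6.55, 8.81, 10.09, 11.68 and 9.68 at 14 months, with a difference of -2.16 ± 0.86 (SE, limma adjusted p = 0.776). Replicate 4 at 14 months lay inside the range at 11 months, and replicate 1 at 14 months lay below all controls (7.79 to 8.61). Rian read 6.87, 6.83 and 8.05 against 3.91, 4.05, 5.92, 7.26 and 5.04, a difference of -2.02 ± 0.66 (SE). Mirg read 6.69, 8.25 and 7.34 against 5.04, 5.09, 6.08, 6.88 and 5.01, a difference of -1.81 ± 0.45 (SE). In each of the 3 genes replicates 1 and 2 at 14 months were among the lowest tumours, and every tumour at 11 months was above every control.

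All 10 other probe sets of Meg3 differed in the same direction, by -2.93 to -0.57. The coding neighbour Dlk1, expressed from the paternal copy, did not share the pattern (0.09 ± 0.38 SE). Nor did Yy1 (-0.06), Wdr25 (-0.23) or Ppp2r5c (-0.17), and Dio3os, at the far end of the region, differed by -0.52. Slc25a47, a liver mitochondrial carrier nearby, differed by -1.19 ± 0.63 (SE). Without the 3 tumours that stand apart, Rian differed by -3.32 and Mirg by -2.04. The 250 bases before the start of Meg3 are shown because the 3 RNAs differ together. They come from RefSeq at GRCm38.p6, chr12:109540746-109540995, plus strand, and capitals mark the NF-Y motif, the only one of the 6 found.
Meg3: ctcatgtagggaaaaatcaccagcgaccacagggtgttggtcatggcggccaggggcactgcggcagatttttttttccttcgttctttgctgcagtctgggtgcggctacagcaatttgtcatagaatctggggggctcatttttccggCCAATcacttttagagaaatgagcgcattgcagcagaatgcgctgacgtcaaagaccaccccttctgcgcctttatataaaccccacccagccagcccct

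Most acute phase genes, which encode plasma proteins that the liver makes in inflammation, had a lower mean at 14 months. Of 21 measured, 5 were lower at an unadjusted p under 0.05 (2.51% of all genes), 8 were at least 2-fold lower (0.824%), and 5 had groups that did not overlap, all lower (1.49%). None passed the threshold and 20 of 21 differences were negative, against 9192 of 18193 over all genes, with a median of -0.47. Serpina3n, a protease inhibitor, read 12.21, 11.13 and 10.37 at 11 months and 10.07, 8.93, 9.41, 9.90 and 10.03 at 14 months. Its controls (10.89 to 11.80) lay above every tumour at 14 months and within the range at 11 months. Ceruloplasmin (Cp), the copper carrier, read 13.94, 13.20 and 13.37 against 12.22, 12.68, 11.91, 12.92 and 12.87, and its 7 other probe sets differed the same way.

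Haptoglobin (Hp) read 14.11, 14.17 and 14.01 against 13.67, 13.85, 13.33, 13.80 and 13.79, and Itih4 was lower by 0.43 on the log2 scale with groups apart. Orm2, an orosomucoid, read 11.03, 11.93 and 11.23 against 10.03, 10.95, 10.41, 9.64 and 10.23, and here the controls (7.91 to 10.19) lay below every tumour at 11 months. Saa1, a serum amyloid, had the largest difference of the list (-2.30 ± 0.92 SE) but overlapped, at 11.03, 13.53 and 11.62 against 9.52, 8.49, 8.33, 11.48 and 10.98. The controls for Saa1 ranged from 10.17 to 12.88. Hamp, the iron hormone hepcidin, was the single member with a higher mean at 14 months (0.47), and it ranged from 8.79 to 13.48 in the tumours. The list's median was negative in all 23 alternatives (-0.73 to -0.39) and -0.39 without the 3 tumours that stand apart, where 5 members were positive.

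**Figure D4:**
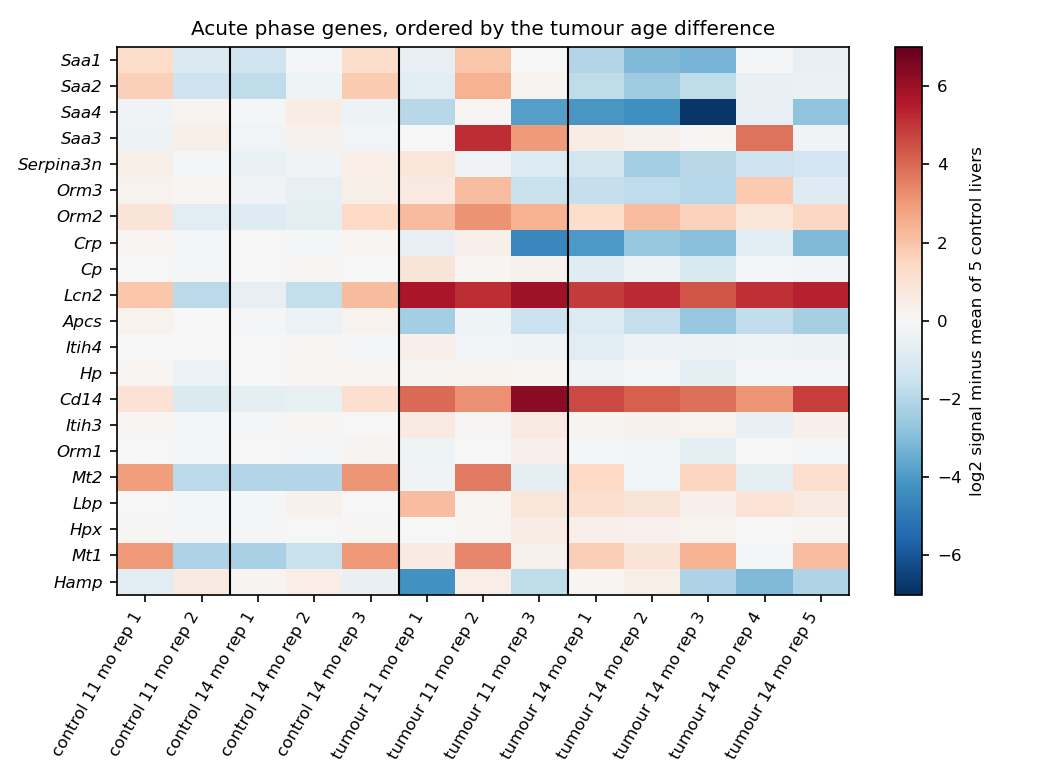
Log2 signal of the 21 measured acute phase genes in every array, as the difference from the mean of the 5 control livers (colour scale from -7 to 7), with genes ordered by the tumour age difference. In 20 of 21 rows the mean of the 5 tumours at 14 months is lower than that of the 3 at 11 months, and Lcn2 and Cd14 are above the controls in all 8 tumours.

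Most chemokines and cytokines, the signals that recruit and activate leukocytes, had a lower mean as well. Of 28 measured, 27 had a negative difference, and the median was -0.31. The mean log2 signal of the list was 6.16, 7.45 and 7.81 at 11 months and 6.61 to 6.84 at 14 months. Replicate 1 at 11 months thus lay below every tumour at 14 months, and replicates 2 and 3 above. At an unadjusted p under 0.05, 4 were lower (Ccl7, Ccl9, Cxcl13 and Cxcl14, against 2.51% of all genes). At least 2-fold lower were 5 (0.824% of all genes). Cxcl13, which attracts B cells, read 6.58, 9.12 and 8.83 at 11 months against 6.07, 5.92, 5.82, 8.38 and 6.47 at 14 months. Ccl7, which attracts monocytes, read 4.35, 5.47 and 5.89 against 4.70, 4.16, 4.35, 3.91 and 4.09. Neither separated the ages, and no member of the list did. The exception in sign was Il33, an alarmin, whose mean was higher by 2.09 and whose values split by tumour, from 5.37 and 7.52 to 12.22 at 11 months and from 6.51 to 11.90 at 14 months.

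Most leukocyte markers also had negative differences. Of 12 neutrophil markers, 6 were lower and 1 higher at an unadjusted p under 0.05 (2.51% and 3.75% of all genes), with a median of -0.31. S100a8 and S100a9, the calprotectin subunits, read 8.01, 8.93 and 10.36 and 8.14, 8.92 and 10.57 at 11 months, and from 7.51 to 8.21 and from 7.69 to 8.31 at 14 months. Of 19 T and natural killer cell markers 5 were lower at that p (2.51% of all genes), with a median of -0.23. The mean log2 signal of this list was low, 4.54 to 5.40 in the tumours, beside array medians of 5.127 to 5.218. It was 4.54, 5.21 and 5.40 at 11 months and 4.58 to 4.93 at 14 months, so replicate 1 at 11 months was the lowest tumour. Cd3e, a chain of the T cell receptor complex, read 6.27, 6.74 and 6.55 against 6.18, 6.09, 6.11, 6.16 and 5.99, and the controls (6.04 to 6.27) were at the level of the tumours at 14 months. Of 15 B and plasma cell markers 13 differences were negative (median -0.25), and of 25 macrophage markers 18 (median -0.48).

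The summed level of the neutrophil markers, on a log2 scale, ran from 9.83 to 11.72 at 11 months, from 9.55 to 10.04 at 14 months and from 8.52 to 9.29 in the controls. That of the T and natural killer markers ran from 9.04 to 10.01, from 9.09 to 9.50 and from 8.97 to 9.14, and that of the macrophage markers from 13.45 to 14.41, from 13.30 to 14.27 and from 13.09 to 13.37. The signals have no zero, but Mpo, a granule enzyme of neutrophils, lay at 3.91 to 4.40 in all tumours, below the median probe set of every array. Within the macrophage list Gpnmb, a marker of lipid-laden macrophages, was higher, at 5.50, 5.26 and 6.21 against 8.79, 7.70, 9.47, 6.67 and 5.90. The part of cell numbers in the acute phase and chemokine differences was not tested. The medians of these 5 immune lists were negative in all 23 alternatives. Without the 3 tumours that stand apart they were -1.09 (chemokines), -0.63 (neutrophil), -0.47 (T and natural killer), -0.29 (macrophage) and -0.14 (B and plasma cell). Replicate 3 is then the only tumour at 11 months. Of the 8 tumours it had the highest mean log2 signal in the chemokine (7.81), neutrophil (6.25) and T and natural killer (5.40) lists. The medians without the 3 tumours rest on that 1 tumour and are no separate support.

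Oxidative phosphorylation, the respiratory chain and ATP synthase of mitochondria, showed small differences in the higher direction. Of 33 subunits measured, 32 differences were positive and 10 were higher at an unadjusted p under 0.05 (3.75% of all genes), with a median of 0.28, none past the threshold and none 2-fold. Sdhd, an anchor of complex II, read 10.79, 10.71 and 11.32 at 11 months and 11.85, 11.90, 11.42, 11.23 and 11.36 at 14 months. Ndufs3 of complex I read 11.10, 11.02 and 11.60 against 11.73, 11.74, 11.63, 11.77 and 11.51. Cox7a2 of complex IV read 12.21, 12.19 and 12.73 against 12.79, 12.74, 12.73, 12.81 and 12.68. In each of the 3 genes, replicate 3 at 11 months lay inside the range at 14 months and replicates 1 and 2 below it. The list's median was 0.02 without the 3 tumours that stand apart.

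The medians of 3 further lists, besides others given below, changed sign without those tumours. Interferon-stimulated genes, the antiviral programme, had 29 of 33 positive differences, with a median of 0.64. Of these genes 9 were at least 2-fold higher (1.18% of all genes) and 5 higher at an unadjusted p under 0.05 (3.75%). Oasl2, an antiviral effector, read 5.94, 6.63 and 8.10 at 11 months and 8.84, 8.89, 9.24, 6.35 and 9.0 at 14 months. The low values belong to the 3 tumours that stand apart, and without them the list's median was -0.05. Cell cycle genes had 31 of 35 positive, 14 at least 2-fold higher (1.18% of all genes) and 3 higher at an unadjusted p under 0.05 (3.75%). Their median was 0.72, and -0.49 without the 3 tumours. Mki67, the proliferation marker, read 4.61, 6.00 and 8.50 against 7.13, 8.09, 6.74, 7.88 and 9.05, and Ccnb2, a mitotic cyclin, 3.95, 5.1 and 7.5 against 6.80, 7.64, 6.54, 8.16 and 8.17.

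In both genes replicate 4 at 14 months, which stands apart, lay within the range of the other tumours of its age. Fetal liver and liver tumour markers had a median of 0.17 with all tumours and -0.49 without the 3. Afp, the fetal albumin homologue, read 10.44, 8.22 and 12.18 at 11 months and 12.26, 11.87, 11.41, 11.58 and 12.18 at 14 months, a difference of 1.58 ± 0.68 (SE, limma adjusted p = 0.776). Igf2 differed by 0.40 ± 0.41 (SE).

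**Figure D5:**
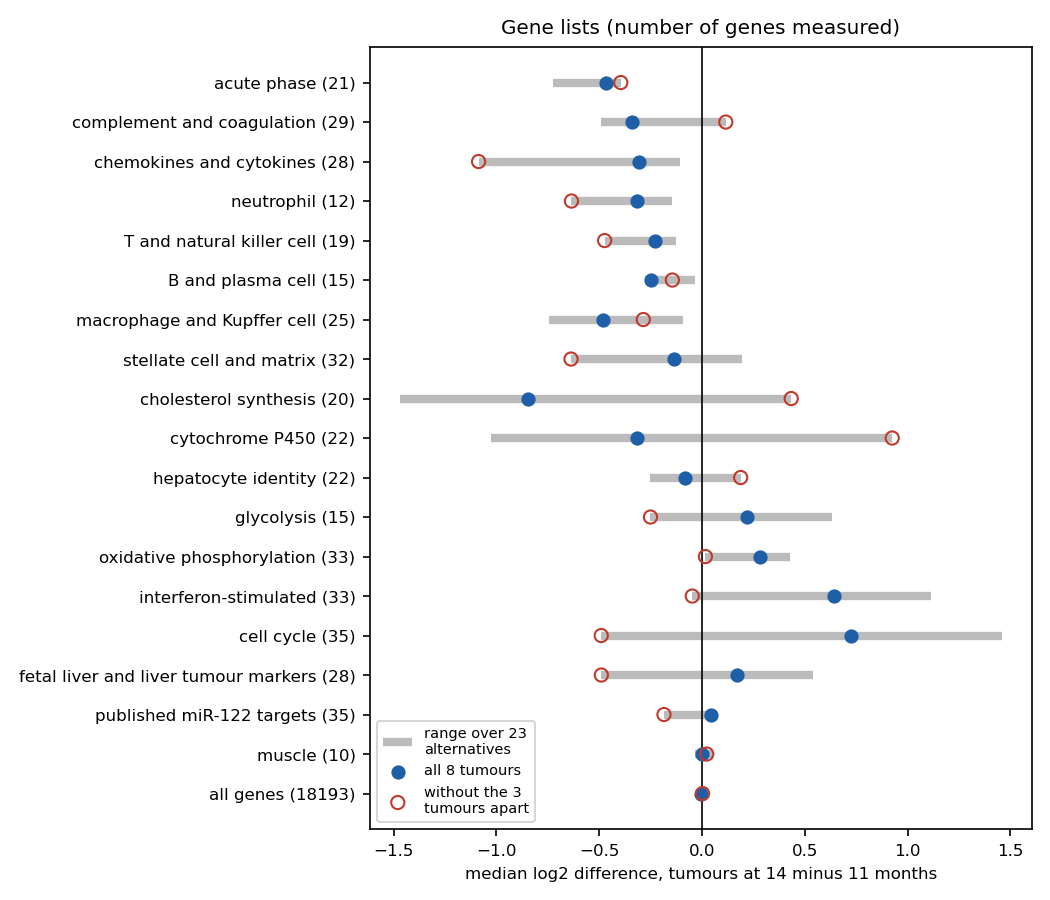
Median log2 difference between tumours at 14 and 11 months for 18 gene lists and for all genes (number measured in brackets), with all 8 tumours (filled) and without the 3 tumours that stand apart (open); grey bars span 23 alternatives. Acute phase, chemokine and leukocyte medians stay below 0, while the cell cycle median goes from 0.72 to -0.49. Open points rest on 1 tumour at 11 months, replicate 3, which had the highest chemokine, neutrophil and T and natural killer list means of all tumours.

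Some lists of liver metabolism also had medians that changed sign without the 3 tumours, and others did not. Cholesterol synthesis, the mevalonate pathway, had 18 of 20 negative differences, 3 at least 2-fold lower (0.824% of all genes) and none at an unadjusted p under 0.05. Its median was -0.85, and 0.43 without the 3 tumours. No member separated the ages, and Idi1, an isomerase of that pathway, read 9.05, 12.40 and 7.86 at 11 months and from 7.86 to 10.16 at 14 months. Cytochrome P450 genes had a median of -0.32, and 0.93 without the 3 tumours. Complement and coagulation factors had 26 of 29 negative, 4 lower at an unadjusted p under 0.05 (2.51% of all genes) and a median of -0.34, and 0.12 without the 3 tumours. Among them Fgg, a fibrinogen chain, separated the ages, at 14.11, 14.05 and 14.03 against 13.51, 13.64, 13.52, 13.49 and 13.98. In the stellate cell and matrix list Fn1, the gene of fibronectin, separated the ages as well, at 12.93, 12.72 and 12.60 against 12.08, 12.10, 12.39, 11.88 and 12.32.

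Gsta2, a glutathione transferase, was higher with groups apart, at 11.06, 11.51 and 11.79 against 12.45, 12.38, 12.30, 13.01 and 12.13. Glycolysis (median 0.22) and hepatocyte identity (-0.08) changed sign without the 3 tumours (-0.25 and 0.19). Of 35 published miR-122 targets, 2 were higher and 1 lower at an unadjusted p under 0.05 (3.75% and 2.51% of all genes). The median was 0.04, beside 0.00 for all genes. Without the 3 tumours the median was -0.18, and 22 of 35 differences were negative, against 8988 of 18193 over all genes. The sign of the median with all tumours was found in 14 of 23 alternatives. The circadian clock list had 10 positive and 10 negative differences, with a median of 0.05, and 0.27 without the 3 tumours. Its output gene Dbp, which swings with the hour, read 9.31, 9.41 and 5.57 at 11 months and 6.03, 5.44, 5.53, 8.89 and 8.47 at 14 months, so the hour of sampling, which the labels do not give, was not tested. The medians of 5 other metabolic lists were positive with all tumours and without the 3. They were 0.34 and 0.20 for lipid droplets and lipid uptake, 0.17 and 0.22 for the urea cycle and amino acid breakdown, and 0.09 and 0.30 for fatty acid synthesis. They were 0.06 and 0.22 for gluconeogenesis and glycogen, and 0.01 and 0.16 for phase II conjugation. The medians of 4 further lists, of liver metabolism and zonation, also went from negative with all tumours to positive without the 3. That of bile acid synthesis and transport went from -0.16 to 0.47, with 8 of 27 members then at least 2-fold higher. That of pericentral genes went from -0.39 to 0.32, with 7 of 19. Over all genes, 191 of 18193 were at least 2-fold higher without the 3 tumours. That of fatty acid oxidation and ketone bodies went from -0.16 to 0.25 and that of periportal genes from -0.23 to 0.06. The urea cycle median kept its sign in all 23 alternatives. Kmo, a kynurenine hydroxylase of that list, separated the ages at 9.89, 10.38 and 9.92 against 10.68, 10.59, 10.61, 10.41 and 10.49. Targets of NRF2, the oxidative stress regulator, had 13 of 16 positive differences and 1 higher at an unadjusted p under 0.05 (3.75% of all genes). Their median was 0.37, and -0.14 without the 3 tumours. The stress response (0.22), hypoxia (0.20), p53 (0.17), Wnt (-0.14) and immediate early (-0.12) lists had at most 1 member at that level, and without the 3 tumours their medians were 0.02, 0.01, -0.02, 0.02 and -0.01. Male-biased and female-biased liver genes and major urinary proteins had medians of -0.21, -0.13 and -0.36, and of 0.51, 0.17 and 0.64 without the 3 tumours. Antigen presentation genes had a median of -0.02 with 9 of 18 positive, and 0.01 without the 3 tumours. B2m, the light chain of class I molecules, separated the ages at 13.62, 13.85 and 13.86 against 14.33, 14.23, 13.95, 13.95 and 14.26. The endothelial list had a median of 0.04, and -0.13 without the 3 tumours. The stellate cell and matrix list had a median of -0.14, and -0.64 without them, where 28 of 32 differences were negative and 10 members were at least 2-fold lower. Over all genes, 8988 of 18193 differences were then negative and 295 were at least 2-fold lower.

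Lists for muscle (0.00), adipocytes (-0.06), red blood cells (0.03), pancreas (-0.16) and cholangiocytes (-0.07) had no member at an unadjusted p under 0.05, and without the 3 tumours their medians were 0.02, -0.06, 0.23, -0.06 and 0.06. Slc4a1, the red cell anion exchanger, stood out in 1 tumour, replicate 3 at 14 months, at 8.39.

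The same age step in the control livers gave no gene past the threshold (limma, 0%) and 326 genes (1.79%) at an unadjusted p under 0.05. Control replicate 1 at 11 months and replicate 3 at 14 months were nearly identical (r = 0.996, 15 genes differing by more than 2-fold), which limits that comparison. Replicate 3 at 14 months is the only control whose title has no animal number, and whether it repeats the other array was not tested. Both arrays are in the shared fit that gives every SE. The difference between the age step in tumours and that in controls, the interaction, gave no gene past the threshold (limma, 0%) and 544 (2.99%) at an unadjusted p under 0.05. For Tmem267 the interaction was 2.14 ± 0.50 (SE, limma adjusted p = 0.999) and for Elovl7 -2.01 ± 0.50 (SE, 0.999). Vac14, a scaffold in phosphoinositide synthesis, had the smallest interaction p, with 5.79, 5.78 and 5.77 in tumours at 11 months, 5.98 to 6.10 at 14 months, 6.26 and 6.20 in controls at 11 months and 5.83 to 5.89 at 14 months. The median of the acute phase list in the controls was -0.03 and that of the cell cycle list -0.19.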

How the data were processed

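RNA from frozen tissue was labelled from 6 ug of total RNA and read on Affymetrix arrays, per the labels' protocols. The authors deposited log2 values from robust multi-array averaging (RMA) with Partek software, per the submitters' processing notes, whose version is not given in the sources used here. Deposited values cover 45101 probe sets with 0 missing and with array medians of 5.127 to 5.218. Of these, 34945 name 1 gene, 932 several, 9160 none and 64 are controls. Each of 18193 genes took the probe set with the highest mean over 13 arrays, with no filter on level. The 13 arrays were fitted together, each group with its own mean (limma 3.58.1, R 4.3.3, lmFit and eBayes, Benjamini-Hochberg over all genes, threshold 0.05), and the fit was tested on simulated data. Levels of different probe sets are not compared, and the number of arrays limits the precision.

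The tumours in each group were set by their labels alone. The comparison itself and the 43 gene lists (858 of 954 entries measured) were chosen with earlier results of these data known. Lists are therefore given by counts and medians with no test. Named genes are the 12 per direction with the smallest p among those at least 2-fold different, the largest difference in each direction of every list, 3 per direction of the control and interaction comparisons, and a fixed set. Other examples are list members chosen after their values were seen, either at an unadjusted p under 0.05 or with ages that did not overlap, or neighbours of Tmem267 and Meg3. Alternatives covered probe sets, normalisation, variance model, array weights, arrays left out, arrays in the fit, level filter and threshold. Promoters came from RefSeq tables at GRCm38.p6 and figures from Python 3.11.15, pandas 2.3.3 and matplotlib 3.10.9.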

Additional observations from a re-analysis of the deposited data

Results flagged for a closer look

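In 17 of the 139 named genes 1 of the 5 tumours at 14 months lay far from the other 4 (Dixon's test, which flags about 1 in 20 groups by chance, or about 7 of 139). In 15 of them that tumour was replicate 4, one of the 3 that stand apart, so these flags are not independent of each other. Most of the 139 genes were also chosen by their values in these same tumours, so 17 against 7 shows no excess over chance.

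Replicate 4 was above the other tumours of its age in Abcd2 (6.76, next 4.78), Acot3 (10.25, next 7.29), BC018473 (6.52, next 3.87), C1s1 (10.61, next 8.75), Cela1 (12.16, next 9.48), Cidea (9.88, next 5.84), Gpc3 (5.03, next 4.48) and Mup10 (8.72, next 5.17). It was below them in Cmpk2 (7.8, next 9.47), Cyp39a1 (4.21, next 8.45), Got1 (8.78, next 13.07), Il33 (6.51, next 10.97), Nr4a1 (7.15, next 9.38), Pfkp (5.93, next 10.1) and Ppargc1a (5.83, next 8.99). Abcd2, Acot3 and Cidea act in peroxisomes or lipid droplets, and Got1 and Ppargc1a in amino acid and mitochondrial metabolism. Replicate 1 was highest in Etfbkmt (10.08, next 9.51) and replicate 5 lowest in Scrn1 (6.06, next 6.2).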

How the results depend on the processing

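The count of genes past the threshold between tumours at 14 and 11 months was 1. It was 0 with array weights, with only the 8 tumours, without both nearly identical controls, with only genes above the median level and at an adjusted p under 0.01. It was 2 with replicates 1 and 2 at 14 months averaged and 2 with all probe sets tested. It was 31 (4 higher, 27 lower) without the 3 tumours that stand apart, where a lone tumour at 11 months is assumed to vary like the other groups, and 0 to 4 with 1 array left out. The 4 were Cd3g, Ifitm1, Klra2 and Medag, without replicate 1 at 11 months. The control count of 0 became 1 without the nearly identical controls and was 0 to 1 with 1 array left out. The interaction count of 0 became 9 without the 3 tumours and was 0 to 1 with 1 array left out. Genes whose ages did not overlap numbered 520, 751 with replicates 1 and 2 averaged, and 6239 without the 3 tumours, a count that a lone tumour at 11 months inflates. The cause of the other shifts was not tested. No paired analysis was possible because replicates were numbered in accession order, which links no sample of one group to another. Scan date and slide were not tested. With 3 and 5 tumours, small differences could not be resolved.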
